A study of Mus musculus with 6 samples.

Results

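The genes described here encode the enzymes and regulators of sterol and fatty acid synthesis, a chosen list of 33 genes, of which 20 form a sterol branch and 13 a fatty acid branch. A gene was counted when the array's annotation carried exactly its symbol. By that rule 32 of the 33 were found, 19 sterol and 13 fatty acid genes, among 23152 measured genes. They are covered by 452 probe sets, 226 in each branch. The exception is Msmo1, a sterol demethylase of the lanosterol pathway, which the annotation lists under its older symbol Sc4mol.

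Cholesterol is built from acetyl-CoA by way of mevalonate, isoprenoids, squalene and lanosterol. Fatty acids are built from the same acetyl-CoA by carboxylation and chain synthesis, and are then elongated and desaturated. The transcription factor SREBP2, made from Srebf2, mainly drives the sterol genes, and SREBP1, made from Srebf1, mainly drives the fatty acid genes. Insig1 holds both factors in the endoplasmic reticulum when sterol is plentiful. Dividing cells need both branches for new membrane, and cells of the developing brain make their own cholesterol. Cytosolic NADPH, which IDH1 helps to supply, is the reductant of both branches.

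The samples were mouse neural stem cells cultured from cortex at embryonic day 14.5, grown as 3 cell lines with the numbers 2, 7 and 8. From every line a culture was infected with adenoviral Cre recombinase (Ad-Cre), an enzyme that here switches on a mutant IDH allele, IDH1-R132H by the series title. Its control was a culture infected with adenoviral green fluorescent protein (Ad-GFP). Both viruses were used at 100 MOI, meaning infectious units per cell, and were washed off after 24 hours. Each culture was read on 1 array, which gave 3 Ad-GFP and 3 Ad-Cre arrays. Both groups had thus received an adenovirus. The labels do not say whether the lines come from separate embryos, so p-values speak for these lines only. They rest on how far the virus effect varied among the lines, with each gene's variance drawn towards that of genes of like signal. With 0 arrays of Cre in cells lacking the mutant allele, Cre itself and the mutant enzyme cannot be told apart.

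Values are log2 signals, so a difference of 1 is a doubling, and the number of arrays limits their precision. Total Idh1 read 12.65 ± 0.11 (SD, n = 3) with Ad-GFP and 12.68 ± 0.29 with Ad-Cre, which does not check that Cre had acted. The stem cell genes Nes and Sox2 were bright on all arrays, with means of 11.93 and 13.22 with Ad-GFP. Of 10 listed stem cell markers, 4 were lower with Ad-Cre in all 3 lines and 2 were higher, against 16.2% and 22.1% of all genes. Their median differences were 0.07, -0.22 and -0.18 in lines 2, 7 and 8. Prom1 averaged 7.58 with Ad-GFP and 6.27 with Ad-Cre, and Hes1 9.44 and 9.87. The Ad-Cre array of line 2 stood apart. Its correlations across genes with the remaining arrays ran from 0.969 to 0.976, and those among the remaining arrays from 0.988 to 0.996. In line 2 the median difference of 27 cell cycle genes, among them the division marker Mki67, was -2.29 log2 units, against -0.13 in line 7 and -0.29 in line 8. Summed over those 27 genes, linear signal ranged from 82711 to 91558 with Ad-GFP and from 18721 to 77696 with Ad-Cre. Of 12 astrocyte markers, 6, 11 and 9 were lower in lines 2, 7 and 8, with list medians of 0.05, -0.35 and -0.42, and their summed signal ranged from 52740 to 57794 with Ad-GFP and from 34150 to 65086 with Ad-Cre. Among them Gfap read 11.27 on the line 2 Ad-Cre array and 7.48 to 8.33 elsewhere. In all 3 lines 5 of the 12 were lower and 1, Sparcl1, was higher, with a mean difference of 1.64. Aldh1l1, Slc6a11, Apoe and Gja1 were among the lower ones, with differences of -1.43, -1.28, -1.11 and -0.47 in line 2. In both lists 0 genes lay under the lower quartile of probe set signals on all arrays. For line 8, the marks in the description field are reversed relative to those of the other lines. The virus was taken from titles and transduction labels, which never disagree. In bulk cultures, fewer cells of a type and less RNA per cell cannot be told apart.

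The promoters of the measured genes were searched for letters that factors of lipid synthesis are known to bind. RefSeq windows of the mouse build GRCm38.p6, from 250 bases before to 50 bases after each start, were at hand for 25 of the 32 genes. The 7 without a window were Fdps, Fdft1, Sqle, Stard4, Scd1, Scd2 and Fads1, so Fads2 was the only desaturase of fatty acids searched. The windows were searched on both strands for TCACNCCAC (a sterol regulatory element, bound by SREBPs), CCAAT (bound by NF-Y), GGGCGG (bound by Sp1) and CACGTG (an E-box). CCAAT was found in 15 of 15 sterol genes and 7 of 10 fatty acid genes, against 42% of the 15968 measured genes with a window. GGGCGG was found in 14 of 15 and 6 of 10, against 50%. Both were also found in Srebf2 and Me1, which read higher with Ad-Cre in all 3 lines. Whether matches go with the differences was not tested. CACGTG was found in 4 and 1 genes, against 9.21%, and TCACNCCAC in Hmgcs1 alone, against 1.47%. Matches of different motifs overlapped once, between CCAAT and GGGCGG. The sequences below are the 250 bases before the start of 4 genes, 5′ to 3′ on the gene's strand, with matches in capitals. Hmgcs1 is shown for its sterol regulatory element, Mvk and Sc5d as sterol genes that read lower with Ad-Cre in all 3 lines, and Fads2 as a fatty acid gene that did so without a CCAAT match.
Hmgcs1: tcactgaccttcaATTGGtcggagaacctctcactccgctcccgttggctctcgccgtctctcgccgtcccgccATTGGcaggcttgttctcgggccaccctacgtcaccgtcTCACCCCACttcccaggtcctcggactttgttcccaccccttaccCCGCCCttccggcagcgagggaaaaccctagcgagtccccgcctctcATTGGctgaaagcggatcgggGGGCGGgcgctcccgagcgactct
Mvk: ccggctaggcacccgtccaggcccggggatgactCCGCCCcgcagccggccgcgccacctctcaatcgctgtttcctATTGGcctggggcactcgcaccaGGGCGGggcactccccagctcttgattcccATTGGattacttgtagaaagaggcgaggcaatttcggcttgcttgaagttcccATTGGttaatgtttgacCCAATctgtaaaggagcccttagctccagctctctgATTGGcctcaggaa
Sc5d: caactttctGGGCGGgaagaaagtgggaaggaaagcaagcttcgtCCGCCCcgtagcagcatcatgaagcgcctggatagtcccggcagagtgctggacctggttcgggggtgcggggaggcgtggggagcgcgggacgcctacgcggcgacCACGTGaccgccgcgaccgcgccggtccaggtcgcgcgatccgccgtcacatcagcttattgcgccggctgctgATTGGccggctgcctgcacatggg
Fads2: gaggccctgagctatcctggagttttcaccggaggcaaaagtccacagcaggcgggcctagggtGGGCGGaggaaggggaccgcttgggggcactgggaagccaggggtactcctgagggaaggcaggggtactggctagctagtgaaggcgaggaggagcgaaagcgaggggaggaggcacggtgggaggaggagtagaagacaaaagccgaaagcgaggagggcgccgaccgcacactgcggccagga
Hmgcs1 lies at chr13:119690101-119690350 on the plus strand, Mvk at chr5:114444019-114444268 on the plus strand, Sc5d at chr9:42264301-42264550 on the minus strand and Fads2 at chr19:10101504-10101753 on the minus strand. In Hmgcs1 the sterol element begins 137 bases before the start, between CCAAT matches on its reverse strand at 176 and 45 bases. Mvk holds 5 CCAAT matches, of which the nearest begins 14 bases before the start. Sc5d holds 1, at 24 bases, with an E-box at 98 bases. In Fads2 the match is a GGGCGG at 186 bases. A match describes the letters and does not show binding. Only exact letters within these windows were searched, so the lack of a match does not show the lack of a binding site.

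Ad-Cre was compared with Ad-GFP within the lines by limma, with the line as a block. None of the 32 genes passed the test across all genes at an adjusted p of 0.05, where 0 of all 23152 genes, 0%, did. At an unadjusted p under 0.05, which 12.6% of all genes had, there were 2 of the 32, both lower with Ad-Cre and both fatty acid desaturases, Scd1 and Fads2. Over all genes 5.58% were lower and 7.04% higher at that threshold, so the members' count is near the background. In direction, 11 of the 32 were lower in all 3 lines (5 sterol and 6 fatty acid genes) and 2 were higher, against 16.2% and 22.1% of all genes. The 3 Ad-Cre arrays lay below the 3 Ad-GFP arrays without overlap for 7 of the 32, against 8.88% of all genes. These 7 were Mvk, Fdft1 and Sc5d of the sterol branch, and Acaca, Scd1, Scd2 and Fads2 of the fatty acid branch. Without line 2, 12 of the 32 were lower in both remaining lines and 7 were higher, where all genes gave 27% and 34.4%.

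**Figure D1:**
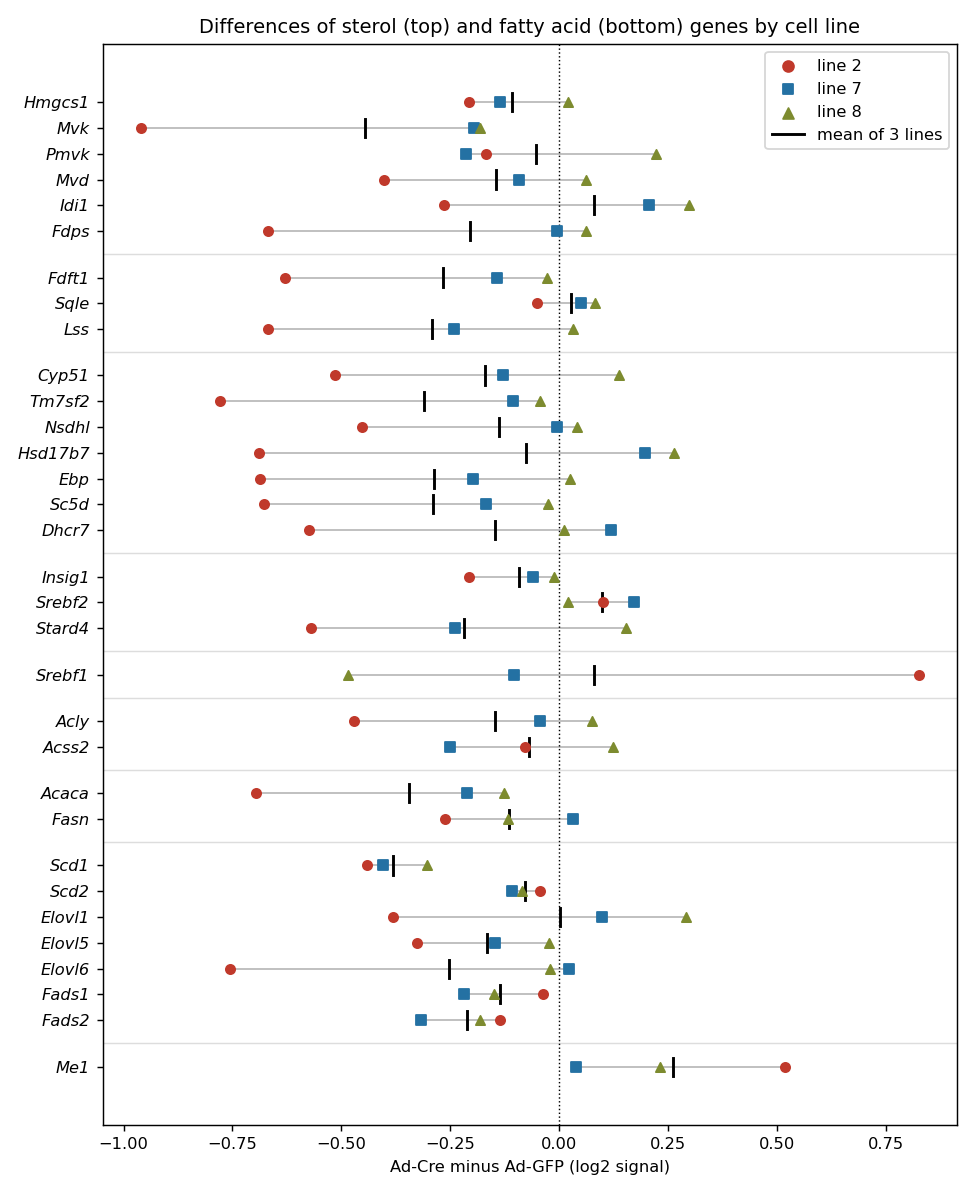
The plot gives the Ad-Cre minus Ad-GFP difference (x axis, log2 signal) of each measured gene in lines 2, 7 and 8 (points) with the mean of the lines (black tick), in blocks by role. Line 2 lies farthest left for most sterol genes, while the 3 points of Scd1 lie together between -0.44 and -0.30.

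The sterol branch read lower with Ad-Cre in line 2, lower by a smaller amount in line 7, and not lower as a whole in line 8. With 1 culture per virus in each line, these differences between lines were not tested. The median difference over its 19 genes was -0.57, -0.11 and 0.03 log2 units in lines 2, 7 and 8, and -0.15 for the means of the lines. The median over all genes was 0.03, 0.02 and 0.01 in the same lines. In line 2, 18 of 19 sterol genes were lower with Ad-Cre, where 44.7% of all genes were. In line 7 the count was 14 of 19 (all genes 44.5%) and in line 8 it was 5 of 19 (all genes 48%). Line 2 had the lowest of the 3 differences for 17 of 19 sterol genes, against 36.8% of all genes. Without line 2 the median was -0.01. The low cell cycle signals given above were on the same array, and their part in the sterol values was not tested. No sterol gene was lower by more than 1 log2 unit in any line, where 3.19% of all genes were in line 2, and 24 of the 27 cell cycle genes.

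**Figure D2:**
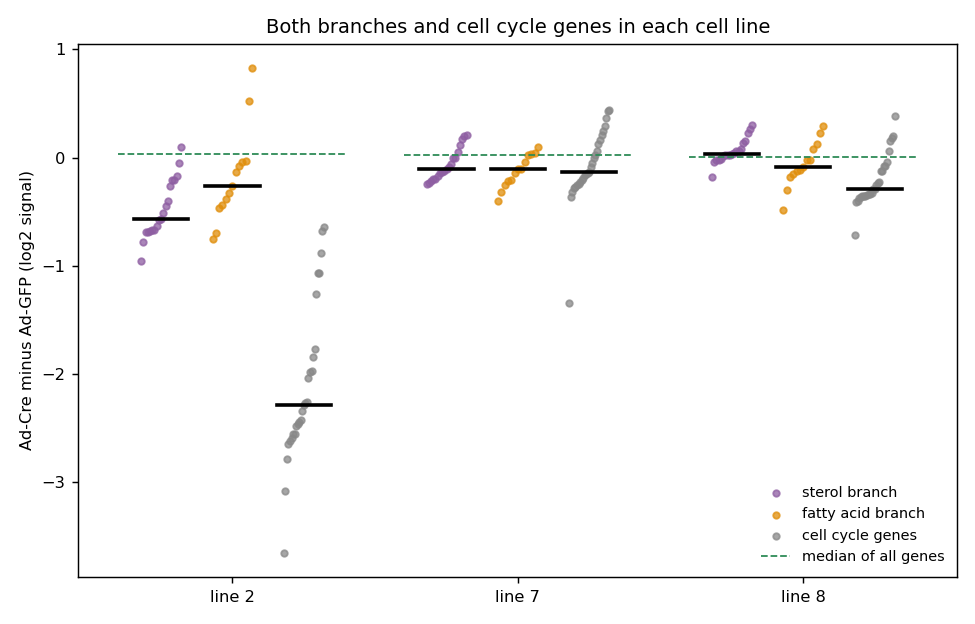
The plot gives the Ad-Cre minus Ad-GFP difference (y axis, log2 signal) of each sterol, fatty acid and cell cycle gene (points) in each line, with list medians (black bars) and the median of all genes (dashed). In line 2 the medians are -0.57, -0.26 and -2.29, and in line 8 they are 0.03, -0.09 and -0.29.

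In the mevalonate and isoprenoid steps, Mvk, the mevalonate kinase, had the largest difference of the branch. Mvk read 10.89, 10.70 and 10.58 with Ad-GFP and 9.93, 10.50 and 10.40 with Ad-Cre in lines 2, 7 and 8. The 2 groups did not overlap, and the Ad-Cre array of line 2 was the lowest. The difference was -0.45 ± 0.19 log2 units (SE, n = 3 lines; adjusted p = 0.422), or 1.36-fold lower, and -0.19 without line 2. Of its 15 probe sets, 11 were lower in all 3 lines. Hmgcs1, the HMG-CoA synthase, gave -0.21, -0.14 and 0.02, and Mvd, the decarboxylase that follows the kinases, -0.40, -0.09 and 0.06. Pmvk, the second kinase, gave -0.17, -0.21 and 0.22. Fdps, which makes farnesyl diphosphate, gave -0.67 in line 2 and -0.0053 and 0.06 in the others. Idi1, the isopentenyl isomerase, is read by 2 probe sets and gave -0.27, 0.21 and 0.30. Thus all 6 genes of these steps were lower in line 2, and 1, Mvk, was lower in all 3 lines.

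In the squalene and lanosterol steps, 2 of the 3 genes were lower by over 0.6 in line 2. Fdft1, squalene synthase, read 13.40, 13.37 and 13.23 with Ad-GFP and 12.77, 13.23 and 13.20 with Ad-Cre. Its groups did not overlap, although line 8 had near-equal arrays. The difference was -0.27 ± 0.13 (SE; adjusted p = 0.475), and 7 of 9 probe sets were lower in all 3 lines. Lss, lanosterol synthase, read 12.24, 12.28 and 12.11 with Ad-GFP and 11.57, 12.04 and 12.14 with Ad-Cre, a difference of -0.29 ± 0.15 (adjusted p = 0.484). Its groups overlapped through line 8. Sqle, squalene epoxidase, which acts between these enzymes and is often rate-limiting, gave -0.05, 0.05 and 0.08, the smallest line 2 difference in size of the 19 sterol genes. Without line 2 the differences of Fdft1 and Lss were -0.09 and -0.10.

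The 7 measured genes between lanosterol and cholesterol were all lower in line 2, with differences from -0.78 to -0.45. Sc5d, the sterol C5 desaturase, read 12.29, 12.22 and 12.20 with Ad-GFP and 11.61, 12.05 and 12.18 with Ad-Cre. Its groups did not overlap, by a small margin in line 8, and the difference was -0.29 ± 0.14 (SE; adjusted p = 0.478). Ebp, the sterol isomerase, read 11.11, 11.09 and 10.88 with Ad-GFP and 10.42, 10.89 and 10.91 with Ad-Cre, a difference of -0.29 ± 0.16 (adjusted p = 0.517) with overlap in line 8. Without line 2 these became -0.10 and -0.09. Tm7sf2, a sterol C14 reductase, gave -0.78, -0.11 and -0.04, and Cyp51, the lanosterol demethylase, -0.51, -0.13 and 0.14. Nsdhl, which acts with Hsd17b7 in removing methyl groups, gave -0.45, -0.01 and 0.04. Hsd17b7, the keto-reductase, was higher in lines 7 and 8, at 0.20 and 0.26, and -0.69 in line 2. Dhcr7, the last enzyme of one arm of the pathway, gave -0.57, 0.12 and 0.01. Sc4mol, the older symbol of Msmo1, gave -0.17, -0.16 and 0.06.

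The regulators of the sterol branch had small differences in line 2. Srebf2 read 12.40, 12.26 and 12.35 with Ad-GFP and 12.50, 12.43 and 12.37 with Ad-Cre. It was the sterol branch gene that was higher in all 3 lines, by 0.10 ± 0.07 (SE; adjusted p = 0.600), with overlapping groups. Insig1 read 12.71, 12.71 and 12.82 with Ad-GFP and 12.50, 12.65 and 12.81 with Ad-Cre, a difference of -0.09 ± 0.07 (adjusted p = 0.624). It was lower in each line, by 0.01 in line 8. Stard4, a sterol transport protein, gave -0.57, -0.24 and 0.15.

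The fatty acid branch had a median difference of -0.26, -0.11 and -0.09 in lines 2, 7 and 8, and -0.13 for the means of the lines. Its genes were lower with Ad-Cre in 11, 9 and 9 of 13 cases, where 44.7%, 44.5% and 48% of all genes were. Without line 2 the median of the fatty acid branch was -0.08. The sterol median minus the fatty acid median was -0.31, 0.00089 and 0.12 in lines 2, 7 and 8, with a mean of -0.06 ± 0.22 (SD, n = 3 lines). The mean was smaller than the spread between lines and turned to 0.06 without line 2. In the control arrays members varied little between lines, with a median SD of 0.09 in the sterol and 0.06 in the fatty acid branch. With Ad-Cre these were 0.26 and 0.15, where the medians over all genes were 0.10 and 0.14. The SD was higher with Ad-Cre for 14 of 19 sterol and 11 of 13 fatty acid genes, against 67.9% of all genes.

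Within the fatty acid branch the desaturases read lower in every line, lines 7 and 8 included. Scd1, the stearoyl-CoA desaturase that makes monounsaturated fatty acids, read 13.69, 13.75 and 13.71 with Ad-GFP. With Ad-Cre it read 13.25, 13.35 and 13.41. The groups did not overlap and were separated by more than their own ranges. The difference was -0.38 ± 0.06 log2 units (SE, n = 3 lines; adjusted p = 0.102), or 1.30-fold lower, with -0.44, -0.40 and -0.30 in the lines. All 5 of its probe sets were lower in all 3 lines, with mean differences between -0.50 and -0.30. Without line 2 the difference was -0.35 and passed over all genes (adjusted p = 0.0102), as it did with the line as a random block (adjusted p = 0.0342) and with array weights (adjusted p = 0.0496). The weights were 0.45 for the arrays of line 2, 1.35 for line 7 and 1.66 for line 8. The weighted fit thus also counts line 2 less and is not separate from the fit without it. Over its alternatives, the adjusted p of Scd1 by limma ran from 0.0102 to 0.999. The 0.999 was with the virus labels of line 8 exchanged, and the next highest was 0.435, without line 7.

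Some markers of other cell types were also lower in all 3 lines. Of 13 measured oligodendrocyte lineage markers 6 were, and of 12 astrocyte and 13 neuron markers 5 each, against 16.2% of all genes. In each of these lists 1 marker was higher in all 3 lines, where 22.1% of all genes were. In the oligodendrocyte list it was Opalin (1.80, 0.995 and 0.46 in lines 2, 7 and 8). In the neuron list it was Rbfox3 (0.62, 0.31 and 0.22), and in the astrocyte list Sparcl1. Of 9 microglia markers, 5 were higher in all 3 lines and 0 were lower. Aif1 and Ptprc of that list lay under the lower quartile on all arrays. Pdgfra, a receptor of oligodendrocyte precursors, gave -3.70, -2.51 and -1.97 in lines 2, 7 and 8, and Gpr17, of the same lineage, -3.42, -3.02 and -2.15. Ugt8a, an enzyme of myelin lipid synthesis, gave -1.47, -1.53 and -1.38. Dcx, of immature neurons, gave -1.77, -1.82 and -1.81, and Apoe, the lipid carrier made by astrocytes, -1.11, -1.70 and -1.13. These markers were picked after their values were seen, and Olig1, another gene of the oligodendrocyte lineage, gave -0.46, 0.04 and -0.07. The list medians in lines 2, 7 and 8 were -0.13, -0.08 and -0.16 for the oligodendrocyte lineage and -0.17, -0.11 and -0.10 for neurons. Summed signal of the oligodendrocyte list ranged from 30206 to 31293 with Ad-GFP and from 23273 to 28129 with Ad-Cre, and that of the neuron list from 14158 to 15882 and from 12420 to 13794, without overlap in either list. Mag, of mature oligodendrocytes, lay under the lower quartile on all arrays. The part of these markers in the desaturase values was not tested.

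Fads2, the delta-6 desaturase of polyunsaturated fatty acids, read 14.14, 14.05 and 14.02 with Ad-GFP and 14.01, 13.73 and 13.83 with Ad-Cre. Its groups did not overlap, by a small margin, and line 7 had the largest difference. The difference was -0.21 ± 0.06 (SE; adjusted p = 0.256), and 10 of 10 probe sets were lower in all 3 lines. Over its alternatives the adjusted p by limma ran from 0.0321 to 0.999. The 0.999 was again with the virus labels of line 8 exchanged, and the next highest was 0.630, without line 7. Without line 2 the difference of Fads2 was -0.25 and passed (adjusted p = 0.0321). In that fit 2 of the 32 genes were called, both lower, where 2.57% of all genes were called as lower and 2.66% as higher. Fads1, the delta-5 desaturase, read 13.63, 13.52 and 13.56 with Ad-GFP and 13.59, 13.30 and 13.41 with Ad-Cre. The Ad-Cre array of line 2 overlapped the controls, and the difference was -0.13 ± 0.06 (adjusted p = 0.447). Scd2, the desaturase paralogue that prevails in the developing brain, read 14.39, 14.38 and 14.42 with Ad-GFP and 14.34, 14.27 and 14.33 with Ad-Cre. Its difference was -0.08 ± 0.04 (adjusted p = 0.500), with 4 of 5 probe sets lower in all 3 lines. Scd1 and Scd2 are similar in sequence, and whether their probes tell them apart was not tested.

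**Figure D3:**
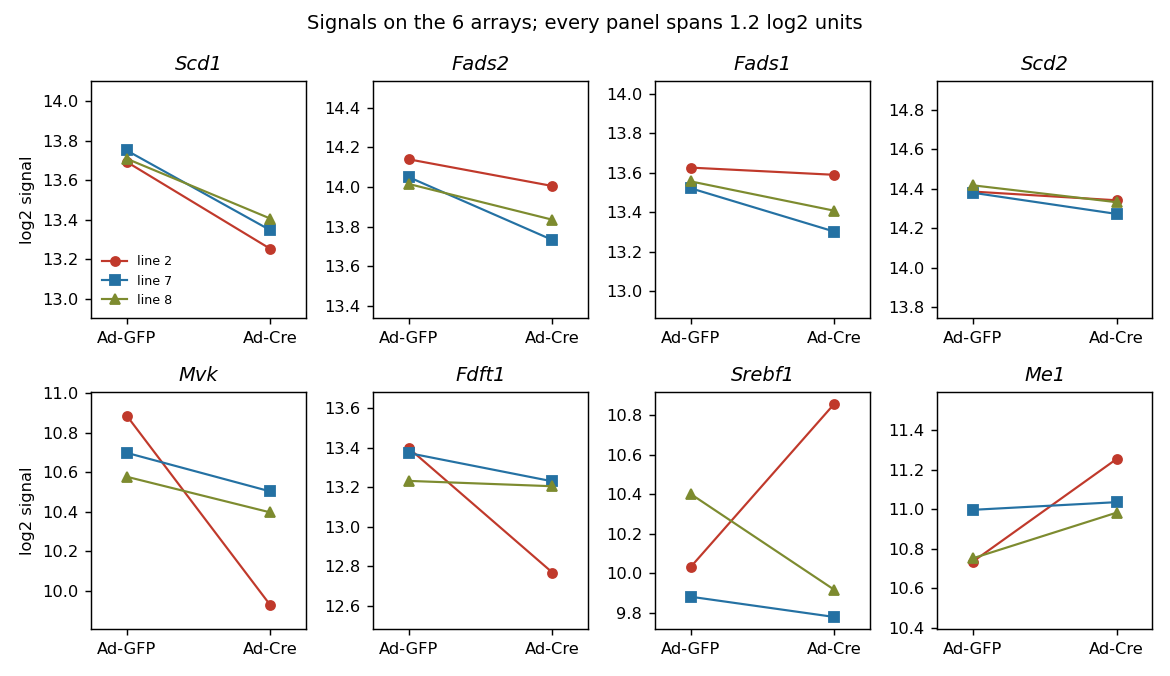
The panels give the log2 signal (y axis, spanning 1.2 units in each) on the Ad-GFP and Ad-Cre arrays (x axis), with a line joining the 2 cultures of each cell line. Scd1 is lower by a like amount in each line, Mvk and Fdft1 are lowest on the Ad-Cre array of line 2, and Srebf1 moves in opposite directions.

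The elongases, which lengthen fatty acids, went different ways. Elovl5, which acts on polyunsaturated chains, gave -0.33, -0.15 and -0.02 and was lower in 7 of 11 probe sets in all 3 lines. Elovl6, which extends palmitate, gave -0.76 in line 2 and 0.02 and -0.02 in the others. Elovl1, of very long saturated chains, gave -0.38, 0.10 and 0.29. All 7 desaturases and elongases were lower in line 2, where 44.7% of all genes were. In all 3 lines 5 of the 7 were lower, against 16.2% of all genes.

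Acaca, the acetyl-CoA carboxylase that commits carbon to fatty acids, read 11.09, 11.05 and 10.96 with Ad-GFP and 10.40, 10.84 and 10.84 with Ad-Cre. The groups did not overlap. The difference was -0.34 ± 0.14 (SE; adjusted p = 0.412), and -0.17 without that line. Of its 30 probe sets 20 were lower in all 3 lines, but the brightest one read 0.11. Fasn, the fatty acid synthase, gave -0.26, 0.03 and -0.12, and 13 of its 40 probe sets were lower in all 3 lines. Acly, which makes cytosolic acetyl-CoA from citrate, gave -0.47, -0.04 and 0.08. Acss2, which makes it from acetate, gave -0.08, -0.25 and 0.12.

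Me1 was higher in all 3 lines, and Srebf1 went opposite ways in line 2 and in the others. Me1, the malic enzyme that supplies NADPH, read 10.73, 11.00 and 10.75 with Ad-GFP and 11.25, 11.04 and 10.98 with Ad-Cre. Its difference was 0.26 ± 0.12 (SE; adjusted p = 0.458), with 9 of 14 probe sets higher in all 3 lines and 1 control array inside the Ad-Cre range. Without line 2 it was 0.13. Srebf1 read 10.03, 9.88 and 10.40 with Ad-GFP and 10.86, 9.78 and 9.92 with Ad-Cre. Its differences were 0.83, -0.10 and -0.48, so that the mean, 0.08 ± 0.26 (adjusted p = 0.919), describes no line, and without line 2 it was -0.29.

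**Figure D4:**
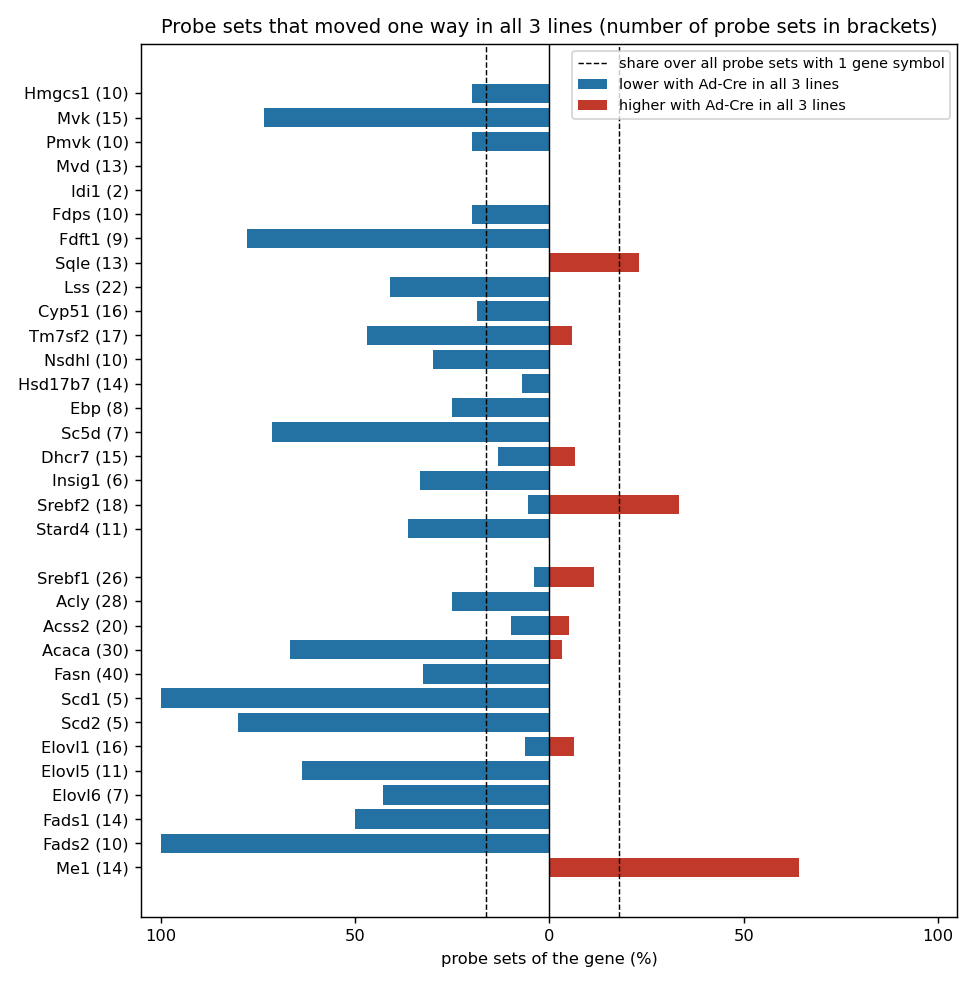
The bars give the share of each gene's probe sets (x axis, percent) that were lower (left) or higher (right) with Ad-Cre in all 3 lines, with the shares over all probe sets dashed (16.4% and 17.9%). Scd1 and Fads2 reach 100% on the left, and Me1 has the longest bar on the right.

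Counted by probe set, 64 of 226 in the sterol branch (28.3%) and 80 of 226 in the fatty acid branch (35.4%) were lower in all 3 lines, against 16.4% of all probe sets. Higher in all 3 lines were 4.87% and 6.64%, against 17.9%. Probe sets of 1 gene share its transcript and arrays, so they are not independent.

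Other genes of the 2 pathways, from lists that exclude the 32, had medians between -0.09 and 0.05 in the lines. Of 27 measured genes of sterol uptake, transport, storage and control, 3 were higher and 2 lower at an unadjusted p under 0.05, and in lines 2, 7 and 8 the median of these genes was 0.05, 0.03 and 0.0041. None passed over all genes, and in all 3 lines 6 were higher and 4 lower. Abcg4, a sterol exporter of brain cells, had a difference of -1.35 ± 0.23 (SE; adjusted p = 0.128), in all 3 lines (-1.89, -1.38 and -0.77). Soat1, which esterifies cholesterol, gave -0.31 ± 0.08 (adjusted p = 0.231). Nr1h2, an oxysterol receptor, gave 0.33 ± 0.11, and Scap, the escort of SREBPs, 0.22 ± 0.08, with adjusted p of 0.350 and 0.394. Without line 2, 3 genes of this list passed, all lower, namely Abcg4 (adjusted p = 0.0119), Soat1 (adjusted p = 0.0428) and Abca1, a cholesterol exporter (-0.51, adjusted p = 0.0184), which read 0.74 in line 2. Of 39 other genes of fatty acid and glycerolipid metabolism, 3 were higher and 5 lower at an unadjusted p under 0.05, with medians of -0.09, -0.06 and -0.02. In all 3 lines 10 of the 39 were lower and 8 higher, against 16.2% and 22.1% of all genes. For 9 the Ad-Cre arrays lay below the Ad-GFP arrays without overlap, and for 5 above them. Over all genes these shares were 8.88% and 12%, so genes lower without overlap were not particular to the members. Lpin1, a phosphatidate phosphatase, gave 0.47 ± 0.10 (adjusted p = 0.192), and Elovl2, an elongase of polyunsaturated chains, -0.64 ± 0.15 (adjusted p = 0.209). Without line 2, 1 gene of this list passed as higher, Lpin1 (adjusted p = 0.0460), and 1 as lower, Gpam, an acyltransferase of glycerolipid synthesis (-0.45, adjusted p = 0.0191), which read 0.26 in line 2. Abca1 and Gpam are named after their values were seen. Fads3, the third gene of the desaturase cluster, gave -0.55 ± 0.14 (adjusted p = 0.251), and Acsl6, an acyl-CoA synthetase, -0.83 ± 0.24 (adjusted p = 0.290).

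The last comparison asked which genes differed between the lines, by the moderated F test of the same fit. None of the 32 passed, where 2 of all genes did (0.00864%), and 0 of the 32 had an unadjusted p under 0.05, where 4.92% of all genes did. Fads2, Fads1 and Insig1 had the lowest p among the members, all with an adjusted p of 0.739. Fads2 averaged 14.07, 13.89 and 13.92 in lines 2, 7 and 8, and Fads1 13.61, 13.41 and 13.48. Insig1 averaged 12.61, 12.68 and 12.82. Beyond what it borrows from other genes, this test has the 2 residual degrees of freedom of 6 arrays. Lines that differ modestly would thus not be called.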

How the data were processed

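Total RNA of 6 cultures was read on 1 Affymetrix array each. Values were deposited as log2 signal for each probe set. The submitters' processing notes name Affymetrix Expression Console and RMA as the authors' tools; the versions, settings and genome build are not stated in these notes. The RMA method equalises the arrays' distributions, so a shift shared by most genes would be hidden. Array medians ran from 8.38 to 8.43.

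Of 269751 probe sets, 233753 have 1 gene symbol in the platform annotation, 5106 several and 30892 none. Those with 1 symbol were summarised to 23152 genes by median polish. Ad-Cre was compared with Ad-GFP in limma 3.58.1 (R 4.3.3, jsonlite 2.0.0) with the line as a block, trended variances, two-sided tests, and p-values adjusted over all genes by Benjamini-Hochberg. Each line received each virus by the series design. Deviations from the virus means correlated across genes at 0.226, 0.163 and 0.333 for arrays of the same number. For others they ran from -0.227 to 0.0029. Deviations within a virus sum to 0 for each gene, so positive values at the same number push the others down, and the 2 kinds of value are not independent. The fit was tested on simulated data.

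The members and lists were chosen with earlier results of these data known. Of the other pathway lists, 27 of 33 sterol, 39 of 40 fatty acid and 19 of 20 oxidation genes were measured, 4 through an older symbol. All members are reported. Values on every array are given for the 5 lowest p of each branch, any unadjusted p under 0.05, Srebf1, Srebf2, Insig1, Scd1 and Scd2. Up to 4 genes with the lowest p were named per other list.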

Additional observations from a re-analysis of the deposited data

Results flagged for a closer look

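Several results went opposite ways in different cell lines, by more than 0.1 log2 units each way, a size set after seeing the data. Each line has 1 culture per virus, so none of these differences between lines was tested, and each is given as the gap between the highest and the lowest of the 3 line differences. Srebf1, the gene of SREBP1, had the widest gap, 1.31, with 0.83 in line 2 and -0.48 in line 8. The sterol median minus the fatty acid median had a gap of 0.42, from -0.31 in line 2 to 0.12 in line 8.

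Of the sterol genes, Hsd17b7 had a gap of 0.95, Stard4 of 0.72, Dhcr7 of 0.69 and Cyp51 of 0.65, each lowest in line 2. The gap was 0.56 for Idi1, also lowest in line 2, and 0.44 for Pmvk, lowest in line 7. Of the fatty acid genes, Elovl1 had a gap of 0.67, lowest in line 2, and Acss2 of 0.37, lowest in line 7.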

How the results depend on the processing

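The number of genes called over the array by limma was 0 with the line as a block, with 2923 at an unadjusted p under 0.05. It was 82 with no replicate block, 241 with the line as a random block, 73 with the mean of probe sets and 277 with array weights, and ran from 0 to 1211 when a line was left out. Of the 32 members, 0 were called, 1 (Scd1) with the random block or array weights, and 0 to 2 with a line left out (Scd1 and Fads2, without line 2). The number of genes that differed between lines was 2, 1 by the brightest probe set, 4 with array weights, and 0 to 37 with a line left out. Acaca turned to 0.11 by the brightest probe set. Srebf1 turned to -0.17 with array weights, and with a line left out ran from -0.29 to 0.36. The cause of these changes was not tested. The sterol median stayed below 0 in 15 alternatives, from -0.25 to -0.01, and the fatty acid median in 14, from -0.16 to -0.08. Some of these could not move the medians. Leaving out the block, making it random or leaving out the variance trend changes only the variances. Dropping genes under the lower quartile of signal removed no member. Their difference ran from -0.15 to 0.06, above 0 without line 2. Adding Msmo1 by its older symbol, chosen after seeing the data, gave a sterol median of -0.15. With the virus labels of line 8 exchanged that median was -0.25, Scd1 read -0.18 and 0 genes were called. Leaving out the replicate block changed no call of a member.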

Other observations

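Genes of fatty acid oxidation, which breaks down what the synthesis branch makes, had medians of 0.04, -0.04 and 0.03 log2 units in lines 2, 7 and 8 over 19 measured genes. At an unadjusted p under 0.05, 1 was higher with Ad-Cre and 0 were lower, and by limma 0 passed over all genes. Acadvl, the dehydrogenase of very long chains, was higher in all 3 lines, by 0.29 ± 0.10 (SE; adjusted p = 0.362). Ehhadh, a peroxisomal enzyme, gave -0.24 ± 0.10 (adjusted p = 0.412), Acaa2, a mitochondrial thiolase, 0.32 ± 0.15 (adjusted p = 0.455) and Etfdh, which passes electrons to the respiratory chain, -0.18 ± 0.09 (adjusted p = 0.475). Ppargc1a, a coactivator of mitochondrial genes that was picked after its values were seen, read -0.20 in line 2 and 0.57 and 0.48 in lines 7 and 8, and passed without line 2 (adjusted p = 0.00883).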
